A study of Mus musculus with 12 samples.

Results

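The C-type lectin and Siglec receptors were taken as every gene whose symbol starts with Clec and a digit or with Siglec, together with Cd22, Cd33, Cd209a to Cd209g, Cd207, Cd69 and Olr1. This gave 51 of the 32772 genes listed, 50 of them in both deposited count tables and Clec2h in the PCN table only. RNA had been sequenced from the inbred mouse strain C57BL/6N, with 3 libraries in each of 4 groups. HFD PCN mice were made obese by 18 weeks of high-fat diet started at 6 weeks of age, and then received pregnenolone 16alpha-carbonitrile, a steroid ligand of the mouse pregnane X receptor, intraperitoneally at 50 mg/kg daily for 4 days. HFD Vehicle mice were obese in the same way and were injected on the same schedule with 30% DMSO in corn oil. HFD mice had the high-fat diet and Chow mice the regular diet, for as long and from the same age, with no injection stated in the labels. By its title the series is about gonadal white fat, although the samples carry duodenum as their source. A list of 8 adipocyte genes summed to 6315 to 20449 CPM (counts per 1000000 counts of the library) across the libraries, and the 6 listed genes of an intestinal epithelium list summed to at most 6.67 CPM.

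C-type lectin receptors are membrane proteins that bind sugars, lipids or proteins through a C-type lectin-like domain. On macrophages, dendritic cells and neutrophils, one branch signals through adaptors with activating motifs and the kinase Syk, and another branch carries inhibitory motifs that recruit phosphatases. Siglecs are sialic acid-binding receptors of the immunoglobulin superfamily, most of them inhibitory, each with its own range of blood cells. Fat from obese mice is known to fill with macrophages, which carry many of these receptors.

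To show the DNA next to the genes that the results turn on, promoters from RefSeq (GRCm38.p6, 250 bases before to 50 bases after the gene's start) were read for the 40 members that have one in the table used. The first set is shown because these 3 genes, all higher in HFD than in Chow, hold the letters GAGGAAG or their reverse complement CTTCCTC, the kind of site bound by the myeloid factor PU.1, which are in capitals. Clec12a lies at chr6:129349994-129350293 on the plus strand with the match starting at position -61 from the gene's start, Clec4d at chr6:123261857-123262156 on the plus strand with a match at -241, and Clec5a at chr6:40585756-40586055 on the minus strand with matches at -82 and -56. Positions count from RefSeq's start, which for Clec12a lies 7553 bases inside the gene as the deposited files bound it, so this stretch does not precede the start used for the gene clusters.
Clec12a: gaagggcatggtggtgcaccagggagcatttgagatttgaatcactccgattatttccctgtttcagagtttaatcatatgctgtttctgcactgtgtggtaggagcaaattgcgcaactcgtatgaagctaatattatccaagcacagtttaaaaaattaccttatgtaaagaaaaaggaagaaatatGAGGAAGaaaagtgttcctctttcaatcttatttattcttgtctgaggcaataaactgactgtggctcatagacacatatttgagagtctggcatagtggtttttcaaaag
Clec4d: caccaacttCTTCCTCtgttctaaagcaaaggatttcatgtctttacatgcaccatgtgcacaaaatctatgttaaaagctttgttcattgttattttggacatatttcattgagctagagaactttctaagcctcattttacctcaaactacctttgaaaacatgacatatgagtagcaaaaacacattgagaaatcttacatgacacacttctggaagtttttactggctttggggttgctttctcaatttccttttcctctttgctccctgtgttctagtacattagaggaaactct
Clec5a: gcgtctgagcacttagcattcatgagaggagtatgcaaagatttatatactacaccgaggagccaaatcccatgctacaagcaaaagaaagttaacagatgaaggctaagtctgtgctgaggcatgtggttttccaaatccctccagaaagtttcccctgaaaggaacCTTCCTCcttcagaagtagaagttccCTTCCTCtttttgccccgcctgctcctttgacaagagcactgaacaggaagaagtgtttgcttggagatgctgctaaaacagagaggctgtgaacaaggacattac
These letters, searched on both strands, were in 12 of 44 promoters of members (27.3%) and in 13.6% of all 32851 promoters of that length. Of promoters of members higher in HFD than in Chow 5 of 16 held them, among them also those of Clec4a1 and Siglecf, which are not shown. Of promoters of members lower in HFD 0 of 6 held them. The letters were also in promoters of Cd33, Clec16a, Siglece and Siglecg, which were not called. Clec2i, Clec4a3, Clec7a and Siglecg are counted more than once, through overlapping entries. The other motifs searched were TGANTCA (AP-1), in 22.7% of members' promoters and 7.81% of all, TTGCNNAA (C/EBP), in 18.2% and 10.8%, TATAAA, in 25.0% and 13.6%, and CACGTG, in 2.27% and 7.15%. No match of one motif overlapped a match of another in a member's promoter. A match is a description of the letters and was not tested as a binding site.

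The second set is shown because 2 neighbouring genes of the Cd209 cluster have similar promoters and also share part of their transcript sequence. Only the shared transcript stretches bear on how their reads can be told apart. Capitals mark the 42 of 300 bases in each that have no identical partner in a global alignment. Cd209f lies at chr8:4105715-4106014 on the minus strand and Cd209g at chr8:4134486-4134785 on the plus strand. RefSeq's start lies 71 bases inside Cd209f and 638 bases inside Cd209g as the deposited files bound them.
Cd209f: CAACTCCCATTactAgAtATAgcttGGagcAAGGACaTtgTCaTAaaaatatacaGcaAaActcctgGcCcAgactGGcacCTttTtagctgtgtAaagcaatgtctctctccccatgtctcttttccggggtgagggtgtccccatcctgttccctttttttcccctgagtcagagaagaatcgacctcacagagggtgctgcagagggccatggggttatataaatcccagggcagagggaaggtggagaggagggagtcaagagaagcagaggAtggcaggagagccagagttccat
Cd209g: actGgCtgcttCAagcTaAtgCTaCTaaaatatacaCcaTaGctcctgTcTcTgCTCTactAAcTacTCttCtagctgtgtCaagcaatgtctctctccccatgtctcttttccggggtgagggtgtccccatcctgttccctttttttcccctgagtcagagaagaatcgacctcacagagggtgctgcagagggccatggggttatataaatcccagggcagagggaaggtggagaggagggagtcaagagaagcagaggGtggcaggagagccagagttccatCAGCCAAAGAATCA
Their promoters were 80.9% identical, against 56.1% for Cd209b and Cd209d, another pair of that cluster. Of all stretches of 50 bases in the transcripts of Cd209f, 29.8% were also in another gene, Cd209g, and 16.6% of those of Cd209g were in Cd209f. The split of reads from these shared stretches between the 2 genes is therefore uncertain. The same holds to a lesser degree for Clec4a4 (15.7%, shared with Clec4a2), Cd209c (15.7%, shared with predicted genes and a pseudogene), Clec10a (9.02%, mainly Mgl2), Clec4b1 (8.68%, Clec4a2) and Cd22 (7.84%, mainly the predicted gene Gm29439).

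Libraries held 11090117 to 27408092 counts, of which the members took 0.0240% to 0.147%. Mitochondrially encoded genes took 7.30% to 29.6% of counts in Chow libraries and 2.30% to 3.47% in all others except HFD Vehicle 50, where they took 7.85%. HFD Vehicle 50 stood apart from its group for myeloid genes. Its 12 macrophage markers summed to 1026 CPM, against 6526 and 6799 CPM in HFD Vehicle 23 and 55, 7448 to 8081 CPM in HFD and 475 to 1424 CPM in Chow. In HFD PCN the same sum was 2876 CPM in library 11, and 6648 and 6859 CPM in the other libraries. The log2 fold changes of named members in comparisons with HFD Vehicle are therefore given with and without library 50.

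The summed CPM of all members was 1303, 760 and 1473 in HFD PCN 5, 11 and 27, and 1253, 400 and 1180 in HFD Vehicle 23, 50 and 55. It was 1224, 1267 and 1259 in HFD 4, 30 and 38, and 515, 378 and 240 in Chow 8, 17 and 19. Every HFD library thus lay above every Chow library, and HFD Vehicle 50 lay within the range of Chow. In HFD, 5 genes made up 67.0% of the sum: Clec12a, Clec2d, Siglec1, Clec7a and Clec10a. In Chow the first 5 were Clec2d, Clec16a, Siglec1, Clec10a and Clec3b, with 65.8%. Per kilobase of exon, the highest mean level in HFD was that of Clec2d (162 CPM per kb), followed by Clec7a (53.6), Clec4d (47.5), Clec10a (43.7) and Clec12a (36.1). In Chow, Clec2d again had the highest level per kilobase (93.7), and Clec4d (1.63) and Clec12a (1.23) ranked below Clec3b (25.1), Clec10a (9.47) and Clec16a (6.48).

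Diet was the first comparison, HFD against Chow, and asks which of these receptors differ in fat after long high-fat feeding. Among the members higher in HFD were the inhibitory receptor Clec12a, the activating receptors Clec4d and Clec7a, the oxidised LDL receptor Olr1 and Siglec15, each over 10 times as high in HFD as in Chow. The endothelial lectins Clec14a and Clec1a were lower, as were 5 Cd209 genes, 3 of which lost the call when single libraries were left out. Of 36 members that passed the filter on low counts, 18 were higher and 7 lower, and 11 did not pass the test (edgeR quasi-likelihood test, adjusted p under 0.05 over all genes tested). Across all 16216 genes tested, 59.8% were called, 29.8% higher and 30.0% lower, so a diet difference as such was common. The median log2 fold change was 0.70 over the 36 members and -0.03 over all genes tested. Libraries of the 2 diets did not overlap for 20 members higher in HFD (42.4% of all genes) and 4 lower in HFD (23.1% of all genes). Overlap was judged in CPM, which leaves out the TMM factors used in the test. These were 0.772 to 1.03 in Chow, lowest in Chow 19, and 1.09 to 1.10 in HFD. Relative to HFD, Chow values are therefore lower in CPM than on the scale of the test, which tilts these counts towards higher in HFD.

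In bulk tissue, fewer cells of a type and less RNA per cell cannot be told apart. The macrophage markers moved in the same direction: 11 of 12 were called higher in HFD, with a median log2 fold change of 2.89. Of the 18 members higher in HFD, 7 had a larger log2 fold change than that median and 11 a smaller one. Of 8 lipid-associated macrophage markers 7 were called higher. Their median log2 fold change was 4.97, larger than those of Clec12a, Clec4d and Olr1. The part of macrophage number in these results was not tested. Nothing in the labels ties each library to its own mouse, and the p-values therefore rest on the spread among the libraries alone, which may be technical.

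**Figure D1:**
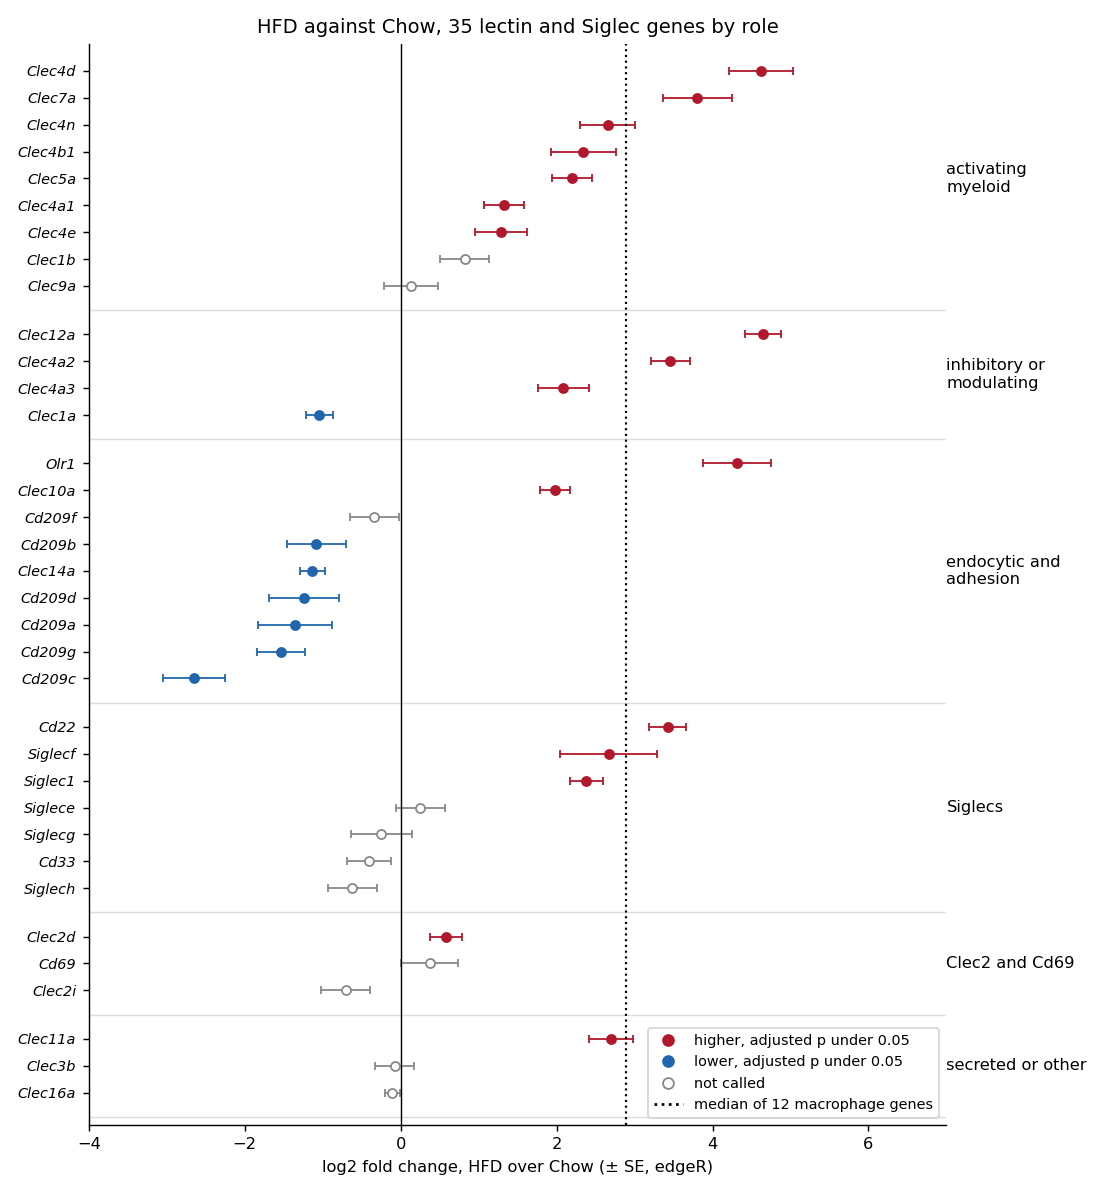
Log2 fold change of HFD over Chow (x axis, ± SE, edgeR) for 35 members, grouped by role (Siglec15, with 2 counts in Chow, is not drawn). Filled points passed the test, and the dotted line is the median of the macrophage markers, 2.89; Clec12a, Clec4d and Olr1 lie right of it and the Cd209 genes left of 0.

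Of 9 tested members grouped here as activating myeloid receptors, Clec4a1 among them, 7 were higher in HFD and 0 lower. Clec4d (MCL, a receptor for mycobacterial glycolipids that pairs with Clec4e) had 97.6, 55.7 and 74.4 CPM in HFD 4, 30 and 38, against 5.02, 1.79 and 1.03 CPM in Chow 8, 17 and 19. All HFD libraries were above all Chow libraries, and the log2 fold change was 4.62 ± 0.41 (SE, adjusted p = 5.0e-05, edgeR). Clec7a (dectin-1, the receptor for fungal beta-glucan) had 124, 146 and 154 CPM in HFD, against 17.3, 5.97 and 2.99 CPM in Chow. The diets did not overlap (log2 fold change 3.80 ± 0.44, adjusted p = 0.000179). Clec4n (dectin-2, which binds fungal mannans) had 6.05, 4.56 and 4.15 CPM in HFD and 0.436, 0.671 and 0.855 CPM in Chow (log2 fold change 2.66 ± 0.35).

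Clec4b1 (Dcar, which couples to the Fc receptor gamma chain) averaged 14.8 ± 2.1 CPM over the 3 HFD libraries (SD) and 2.48 ± 2.17 CPM over the 3 Chow libraries, with a log2 fold change of 2.34. Clec5a (MDL-1, which couples to the adaptor Tyrobp) averaged 4.44 ± 0.43 CPM in HFD, against 0.809 ± 0.263 CPM in Chow, with a log2 fold change of 2.20. Clec4a1, of the same gene cluster, had 20.4, 16.7 and 14.9 CPM in HFD and 9.01, 4.25 and 4.36 CPM in Chow (log2 fold change 1.33). Clec4e (Mincle, which senses dead cells and mycobacterial glycolipid) had 2.21, 1.93 and 1.80 CPM in HFD and 1.09, 0.522 and 0.427 CPM in Chow. Its log2 fold change, 1.29 ± 0.33 (adjusted p = 0.0102), was 1.60 below the macrophage median, whereas that of Clec4d, its neighbour on the chromosome, was 1.72 above it. Clec4e was not called when all 12 libraries were fitted together (adjusted p = 0.0960).

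The other tested members of this group did not pass the test. Clec1b (CLEC-2, the platelet receptor for podoplanin) had 1.03, 0.985 and 1.08 CPM in HFD and 0.436, 0.597 and 0.427 CPM in Chow, without overlap (log2 fold change 0.82, adjusted p = 0.0520). Clec9a (DNGR-1, the receptor of cross-presenting dendritic cells for dead cells) had 4.39, 3.69 and 4.09 CPM in HFD and 4.00, 1.57 and 3.67 CPM in Chow (log2 fold change 0.13 ± 0.35, adjusted p = 0.765). Its groups overlapped. Of 9 conventional dendritic cell markers, 4 were higher and 2 lower in HFD.

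Among the 4 tested members grouped as inhibitory or modulating receptors, 3 were higher in HFD. The 1 that was lower was the endothelial lectin Clec1a, given below. Clec12a (MICL, an inhibitory receptor that recognises uric acid crystals) had 188, 215 and 197 CPM in HFD 4, 30 and 38, against 10.3, 6.12 and 3.93 CPM in Chow 8, 17 and 19. Its log2 fold change of 4.64 ± 0.23 had the smallest adjusted p of the members, 6.5e-06. Clec4a2 (Dcir1, with an inhibitory motif in its tail) had 63.8, 65.2 and 64.0 CPM in HFD and 8.14, 3.95 and 2.82 CPM in Chow (log2 fold change 3.46 ± 0.25). Clec4a3 (Dcir3) averaged 41.6 ± 2.7 CPM in HFD and 8.40 ± 5.93 CPM in Chow (log2 fold change 2.09). No HFD library of these 3 genes was as low as any Chow library.

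Clec1a (MelLec, known from endothelial cells and as a receptor for fungal melanin) went the other way, with 8.86, 10.7 and 11.4 CPM in HFD, against 16.5, 22.0 and 14.7 CPM in Chow. The diets did not overlap, and the log2 fold change was -1.04 ± 0.17 (adjusted p = 0.00104). Clec14a, an endothelial lectin of vessel growth, had 6.53, 7.15 and 8.47 CPM in HFD and 13.7, 13.9 and 12.7 CPM in Chow, also without overlap (log2 fold change -1.13 ± 0.16, adjusted p = 0.000455). All 8 endothelial markers listed were lower in HFD, with a median log2 fold change of -1.49. Their sum was 513 to 528 CPM in HFD and 1083 to 1397 CPM in Chow. The part of endothelial cell number in the values of Clec1a and Clec14a was not tested.

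**Figure D2:**
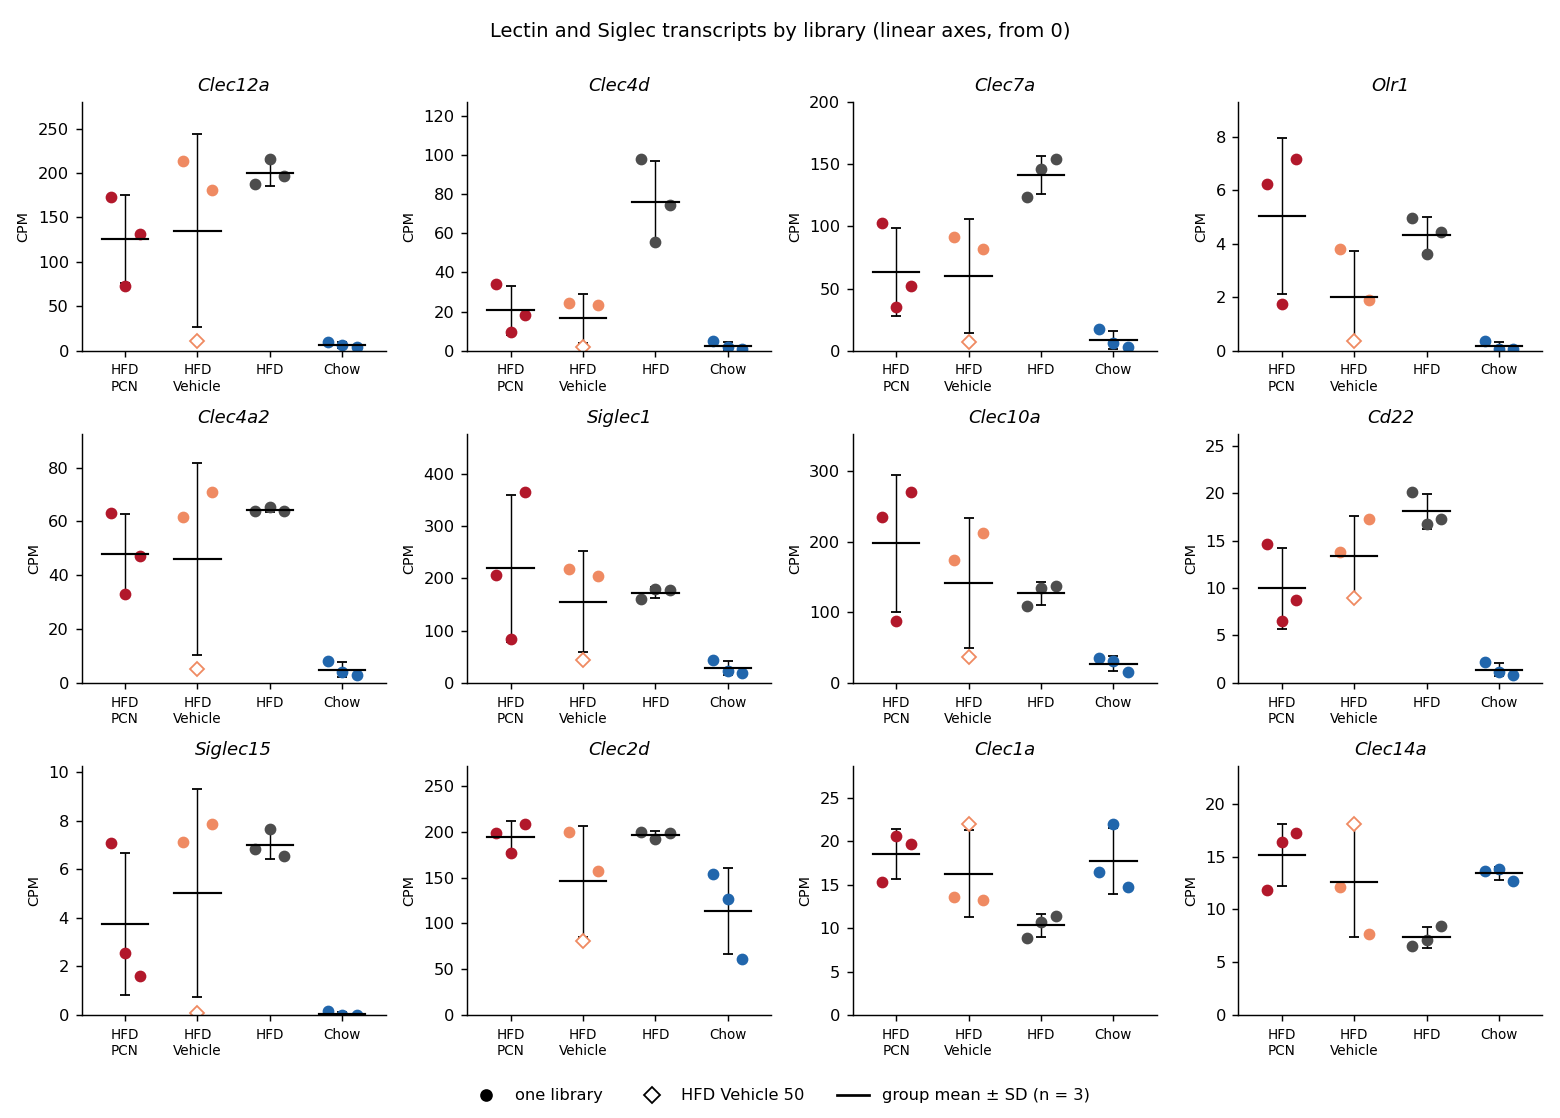
CPM (y axes, linear) of 12 members in each library of HFD PCN, HFD Vehicle, HFD and Chow, with the group mean ± SD. HFD lies above Chow without overlap for Clec12a, Clec4d, Clec7a and Olr1 and below it for Clec1a and Clec14a; the open diamond is HFD Vehicle 50.

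Endocytic and adhesion lectins split by gene: of 9 tested, 2 were higher and 6 lower in HFD, and 1 did not pass the test. Olr1 (LOX-1, the receptor for oxidised LDL) had 4.95, 3.61 and 4.45 CPM in HFD, against 0.363, 0.0746 and 0.0855 CPM in Chow (log2 fold change 4.31 ± 0.44, adjusted p = 9.3e-05). Clec10a (Mgl1, a macrophage receptor for galactose and N-acetylgalactosamine) had 108, 134 and 137 CPM in HFD, against 35.3, 31.2 and 15.9 CPM in Chow (log2 fold change 1.98 ± 0.20). Both genes had no overlap between diets, and Clec10a lay 0.91 below the macrophage median. Cd207 (langerin, of Langerhans cells and some dendritic cells) had 14, 26 and 17 counts in the HFD libraries and 0 in every Chow library. Against a floor of 3 counts over the Chow group, it was at least 10.4-fold higher in HFD, and it did not pass the filter for the test.

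The Cd209 genes encode the mouse relatives of DC-SIGN, receptors for mannose- and fucose-rich sugars; Cd209b (SIGNR1) is known from macrophages of the splenic marginal zone. Cd209c (SIGNR2) had 0.221, 0.511 and 0.240 CPM in HFD, against 2.33, 1.42 and 1.62 CPM in Chow, without overlap (log2 fold change -2.65 ± 0.40, adjusted p = 0.000654). Cd209g had 1.22, 1.28 and 0.901 CPM in HFD and 4.14, 2.76 and 1.62 CPM in Chow, also without overlap (log2 fold change -1.54 ± 0.31, adjusted p = 0.00319). These 2 kept their call in every fit that left out a library, while Cd209g lost it when all 12 libraries were fitted together (adjusted p = 0.0756).

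Cd209a, Cd209b and Cd209d overlapped between diets and passed the test narrowly. Cd209a had 1.33, 1.53 and 2.04 CPM in HFD and 6.11, 3.73 and 0.940 CPM in Chow (log2 fold change -1.36, adjusted p = 0.0373). Cd209b had 3.06, 3.43 and 1.98 CPM in HFD and 8.65, 4.70 and 2.31 CPM in Chow (log2 fold change -1.08, adjusted p = 0.0365). Cd209d had 1.70, 2.66 and 1.32 CPM in HFD and 6.61, 3.80 and 1.37 CPM in Chow (log2 fold change -1.24, adjusted p = 0.0410). In all of these Chow 8 was the highest library and Chow 19 the lowest of its diet. Without Chow 8 the log2 fold change was -0.83 for Cd209a, -0.60 for Cd209b and -0.73 for Cd209d, and none of the 3 was called. Cd209a and Cd209b also lost the call without Chow 17, HFD 4, HFD 30 or HFD 38, and Cd209d without Chow 17, HFD 4 or HFD 38. Cd209f (7.05, 4.67 and 4.09 CPM in HFD, 8.21, 6.12 and 2.91 CPM in Chow) did not pass the test (log2 fold change -0.34, adjusted p = 0.378).

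Resident macrophage markers did not share one direction. Of the 5 tested, 2 were higher, 2 not called and 1, Cd163, was called lower (log2 fold change -2.21). Cd163 had 35.8, 59.5 and 27.5 CPM in HFD and 233, 149 and 105 CPM in Chow. Going the other way, Mrc1 had 710, 674 and 643 CPM in HFD and 200, 178 and 89.6 CPM in Chow. Folr2 had 192, 203 and 150 CPM in HFD and 23.3, 14.5 and 5.13 CPM in Chow. The sum of that list was 922 to 1076 CPM in HFD and 275 to 673 CPM in Chow. Relative to 1000 counts of the 12 macrophage markers, the summed Cd209 genes were 1.43 to 1.91 in HFD and 23.1 to 27.8 in Chow, a description chosen after the values were seen. Most of that difference lies in the markers, which summed to 7448 to 8081 CPM in HFD and 475 to 1424 CPM in Chow. In CPM the summed Cd209 genes overlapped, at 10.7 to 14.8 in HFD and 10.9 to 36.5 in Chow.

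Of 8 Siglecs tested, 4 were higher in HFD and 0 lower. Siglec1 (sialoadhesin, CD169, of tissue macrophages) had 160, 179 and 178 CPM in HFD, against 42.8, 23.1 and 19.0 CPM in Chow (log2 fold change 2.38 ± 0.21, adjusted p = 5.1e-05). Cd22, an inhibitory Siglec best known from B cells, had 20.2, 16.8 and 17.3 CPM in HFD, against 2.18, 1.19 and 0.855 CPM in Chow (log2 fold change 3.43 ± 0.24, adjusted p = 1.9e-05). The B cell list had no common direction: of the 5 tested in the B cell list 1 was higher, 1 lower and 3 not called. Cd22 overlaps another annotated gene in 9.50% of its exon bases.

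Siglec15, known from osteoclasts, where it signals through Tyrobp, had 185, 210 and 109 counts in HFD 4, 30 and 38, against 2, 0 and 0 counts in Chow 8, 17 and 19. Scaled by library totals, the ratio was 138, with a 95% counting interval of 37.9 to 1140 that covers counting error only. Both counts were in Chow 8, and without that library the Chow group holds 0. Of the 5 osteoclast markers tested, 3 were higher and 1 lower in HFD. The fusion gene Dcstamp had 18.7, 26.2 and 26.3 CPM in HFD and 1.31, 0.224 and 0.342 CPM in Chow. Acp5, of the same list, overlapped between diets, with 185, 147 and 177 CPM in HFD and 188, 141 and 89.9 CPM in Chow. Siglecf, the Siglec of mouse eosinophils, had 18, 37 and 16 counts in HFD and 3, 2 and 0 counts in Chow (log2 fold change 2.67 ± 0.62, adjusted p = 0.0064). Of 6 eosinophil markers 1 passed the filter, the receptor gene Ccr3, with 260, 165 and 83 counts in HFD and 3, 1 and 0 in Chow, and it was called higher. Prg2, another of them, had 0.258, 0.292 and 0.360 CPM in HFD and 0.218, 0.298 and 0.171 CPM in Chow. The parts of these cell types in the values of Siglec15 and Siglecf were not tested.

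The other 4 Siglecs did not pass the test. Cd33, of myeloid cells, had 17.1, 16.6 and 12.9 CPM in HFD and 29.2, 13.1 and 10.9 CPM in Chow (log2 fold change -0.41, adjusted p = 0.239). Siglece, an inhibitory Siglec of neutrophils and macrophages, had 2.33, 2.04 and 2.34 CPM in HFD and 1.60, 1.12 and 1.97 CPM in Chow (log2 fold change 0.25, adjusted p = 0.516). It had no overlap in CPM, but this does not hold on the scale of the test, where Chow 19 has a TMM factor of 0.772. Siglecg, of B cells, had 0.960, 1.24 and 0.721 CPM in HFD and 1.16, 0.597 and 1.196 CPM in Chow (log2 fold change -0.25 ± 0.39). Siglech, of plasmacytoid dendritic cells, had 1.25, 0.803 and 0.961 CPM in HFD and 1.74, 1.34 and 0.855 CPM in Chow (log2 fold change -0.62 ± 0.31). Cd33, Siglece, Siglecf, Siglecg and Siglecl1 lie in one stretch of chromosome 7, and Siglecf was the only one of them that was called.

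Clec2 proteins and CD69 are encoded next to each other and act largely as ligands or markers of lymphocytes and natural killer cells. Clec2d (Ocil or Clr-b, the ligand of an inhibitory natural killer receptor) had 200, 192 and 199 CPM in HFD and 153, 126 and 61.6 CPM in Chow (log2 fold change 0.58 ± 0.21, adjusted p = 0.0408). It was called in 2 of 6 fits with one library left out, losing the call without HFD 4, HFD 30, HFD 38 or Chow 17, and its log2 fold change was 0.37 without Chow 19. Clec2i (Clr-g) had 2.25, 1.75 and 2.40 CPM in HFD and 4.65, 2.24 and 1.97 CPM in Chow (log2 fold change -0.71, adjusted p = 0.0817). Cd69, an early activation marker, had 1.33, 0.839 and 0.961 CPM in HFD and 0.872, 0.821 and 0.342 CPM in Chow (log2 fold change 0.37, adjusted p = 0.404). Killer cell lectin-like receptors, not all of which bind proteins of this group, gave 2 higher and 0 lower of 9 tested: Klra3 (log2 fold change 2.72) and Klrb1a (1.90).

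Of the 3 secreted or other proteins tested, Clec11a (osteolectin, a secreted growth factor of bone) had 7.83, 9.45 and 6.91 CPM in HFD, against 1.53, 0.746 and 0.855 CPM in Chow (log2 fold change 2.70 ± 0.28, adjusted p = 9.7e-05). Clec16a, an intracellular regulator of mitophagy, had 62.2, 57.2 and 60.5 CPM in HFD and 58.9, 59.5 and 44.4 CPM in Chow (log2 fold change -0.11, adjusted p = 0.366). Clec3b (tetranectin, which binds plasminogen) had 25.9, 35.8 and 20.6 CPM in HFD and 36.1, 23.6 and 14.9 CPM in Chow (log2 fold change -0.08, adjusted p = 0.805). Both overlapped between diets.

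Neighbouring members did not always share a direction. The Clec4 cluster on chromosome 6 (GRCm38, 122921848 to 123289870, 9 members over 368 kb) held 7 tested members, all called higher in HFD. The next cluster, from Clec12a to Olr1 (chromosome 6, 129342691 to 129507165, 7 members over 164 kb), held both directions. There Clec12a, Clec7a and Olr1 were higher, Clec1a was lower, and Clec1b and Clec9a were not called. Clec1a starts within 10 kb of Clec7a, and these neighbours had log2 fold changes of -1.04 and 3.80. In the Cd209 cluster (chromosome 8, 3743397 to 4137707, 7 members over 394 kb), all 6 tested members had a negative log2 fold change, 5 of them called. Coordinates are those of the files, given from 1.

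**Figure D3:**
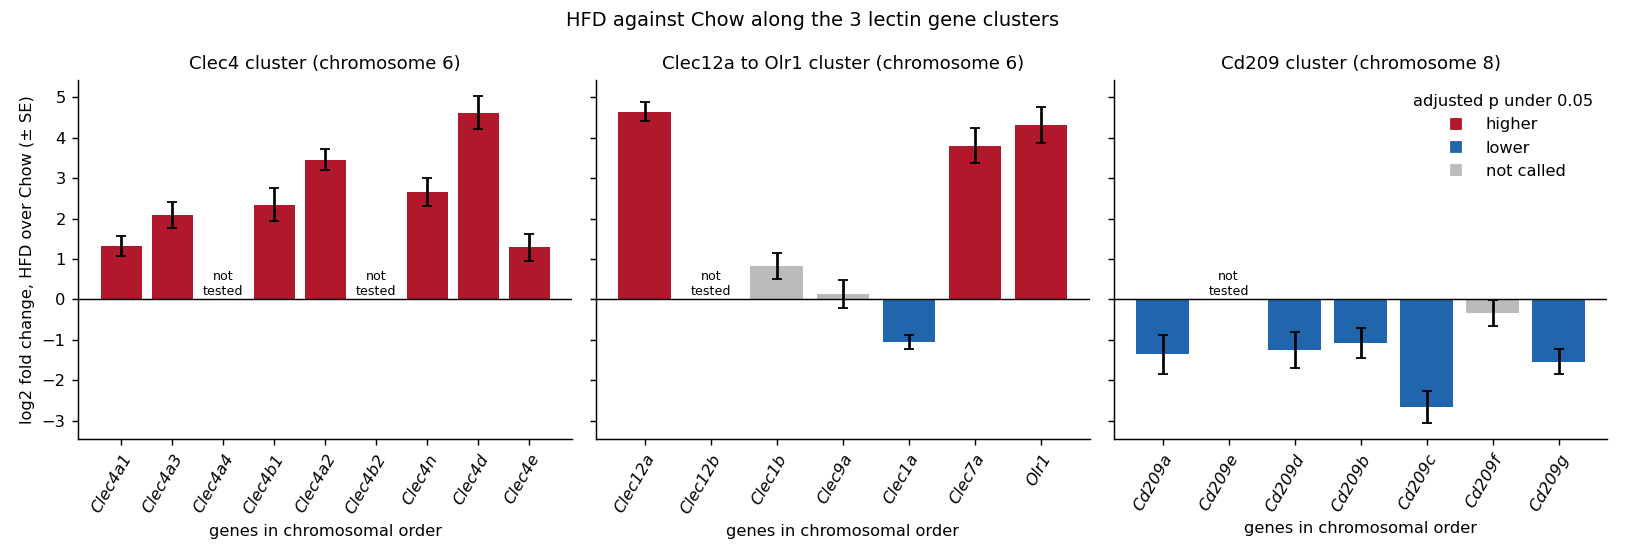
Log2 fold change of HFD over Chow (y axis, ± SE) for members of the 3 lectin gene clusters in chromosomal order. The Clec4 cluster points up throughout, the Cd209 cluster down, and the cluster from Clec12a to Olr1 holds both.

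Most signalling genes listed downstream of the receptors were also called higher in HFD. Of 18 adaptors and kinases tested, 16 were higher and 0 lower, with a median log2 fold change of 1.96, among them Vav1 (82.8 ± 1.5 CPM in HFD against 13.6 ± 4.0 CPM in Chow) and the Fc receptor gamma chain Fcer1g (164 ± 9 CPM in HFD and 13.5 ± 5.7 CPM in Chow). Of 10 phosphatases and partners that bind inhibitory tails, 9 were higher, led by Inpp5d, Dok1 and Dok2 (log2 fold changes 1.61, 1.82 and 2.02). The 1 that was lower was Ptpn11 (SHP-2, log2 fold change -0.87), named after its value was seen. Many of these genes are expressed by macrophages at large.

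Ligands and other lectins moved in both directions. Of 8 genes listed as ligands, 5 were higher and 1 lower. Podoplanin (Pdpn, the ligand of Clec1b) had 38.3 ± 1.9 CPM in HFD and 4.70 ± 2.91 CPM in Chow. Spn (log2 fold change 2.17) and Cd200 (1.54) were also higher, although the receptor of Cd200 is not among the members. Of 22 genes of sialic acid synthesis and transfer, which make the sugars that Siglecs bind, 10 were higher and 7 lower, with a median log2 fold change of 0.28. St6galnac4 (log2 fold change 2.04) and Cmas, the enzyme that activates sialic acid (1.52), were higher, and St6galnac2 was lower (-1.99). Of 18 other lectin receptors and collectins, 10 were higher and 3 lower, with Cd72 (79.9 ± 8.4 CPM in HFD and 1.18 ± 0.43 CPM in Chow), Lgals3 (log2 fold change 4.57) and Layn (2.57) at the smallest p-values.

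Under the other tools, filters and scalings, the number of members called ranged over 20 to 28, and over 20 to 26 when one library was left out, against 25. Of the 25 members called, 19 kept their call and direction in every fit that tested them; Siglecf did not pass the filter in some fits. Without Chow 8 the log2 fold changes were 5.42 for Clec4d, 4.66 for Clec7a, 5.36 for Olr1, 3.23 for Clec4b1, 2.73 for Clec4a3 and 3.25 for Siglecf, each more than 1.5 times the fold change given above. The authors' deposited table called 19 members higher and 5 lower of 50 listed.

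PCN was compared with its vehicle next, HFD PCN against HFD Vehicle, the comparison that asks what the compound itself adds in obese mice. No member passed the test, and no gene did: 0 of 16563 genes (0.0%) and 0 of 37 members had an adjusted p under 0.05 in edgeR. At an unadjusted p under 0.05 there were 281 genes (1.7%) and 3 members (Cd209b, Cd209f and Cd33). DESeq2 called 1 gene, limma-voom 0 and 2 passed in the authors' deposited table, none of them a member. The 4 members with the largest log2 fold changes were Cd209f, Cd209b, Cd209g and Cd209d.

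Cd209b had 11.6, 7.09 and 27.1 CPM in HFD PCN 5, 11 and 27, against 6.41, 4.69 and 1.35 CPM in HFD Vehicle 23, 50 and 55. No HFD PCN library was as low as any HFD Vehicle library, with a log2 fold change of 1.82 ± 0.69 (unadjusted p = 0.0347). Cd209f had 15.5, 9.77 and 35.3 CPM in HFD PCN, against 9.19, 4.60 and 1.73 CPM in HFD Vehicle (log2 fold change 1.90 ± 0.69, unadjusted p = 0.0306). Cd209d (SIGNR3) had 5.15, 4.69 and 11.98 CPM in HFD PCN and 3.55, 3.07 and 0.431 CPM in HFD Vehicle (log2 fold change 1.57 ± 0.75). Cd209g had 3.38, 2.96 and 8.52 CPM in HFD PCN and 2.45, 1.71 and 0.216 CPM in HFD Vehicle (log2 fold change 1.70 ± 0.81). In each of the 4 genes HFD PCN 27 was the highest library and HFD Vehicle 55 the lowest. Without HFD Vehicle 50 the log2 fold change was 1.92 for Cd209b, 1.83 for Cd209f, 1.79 for Cd209d and 1.81 for Cd209g, with an adjusted p of 0.800 for each in edgeR.

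Cd209a (2.27, 4.24 and 3.40 CPM in HFD PCN, 1.10, 3.43 and 0.755 CPM in HFD Vehicle) and Cd209c (0.730, 1.34 and 2.26 CPM in HFD PCN, 0.327, 1.71 and 0.270 CPM in HFD Vehicle) overlapped because of HFD Vehicle 50. Their log2 fold changes were 0.88 and 0.94, and 1.76 and 2.18 without that library. Cd209e (SIGNR4) had 13, 12 and 17 counts in HFD PCN and 3, 0 and 3 in HFD Vehicle, and did not pass the filter. Cd33 had 20.2, 17.6 and 15.7 CPM in HFD PCN and 12.9, 8.66 and 6.95 CPM in HFD Vehicle (log2 fold change 0.85 ± 0.26, unadjusted p = 0.0153, and 0.80 without HFD Vehicle 50). With Cd209b, Cd209d, Cd209f and Cd209g it made 5 of 37 members whose HFD PCN libraries were all above HFD Vehicle, which was so for 5.06% of all genes tested. For 0 members were all HFD PCN libraries below HFD Vehicle (1.76% of all genes).

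**Figure D4:**
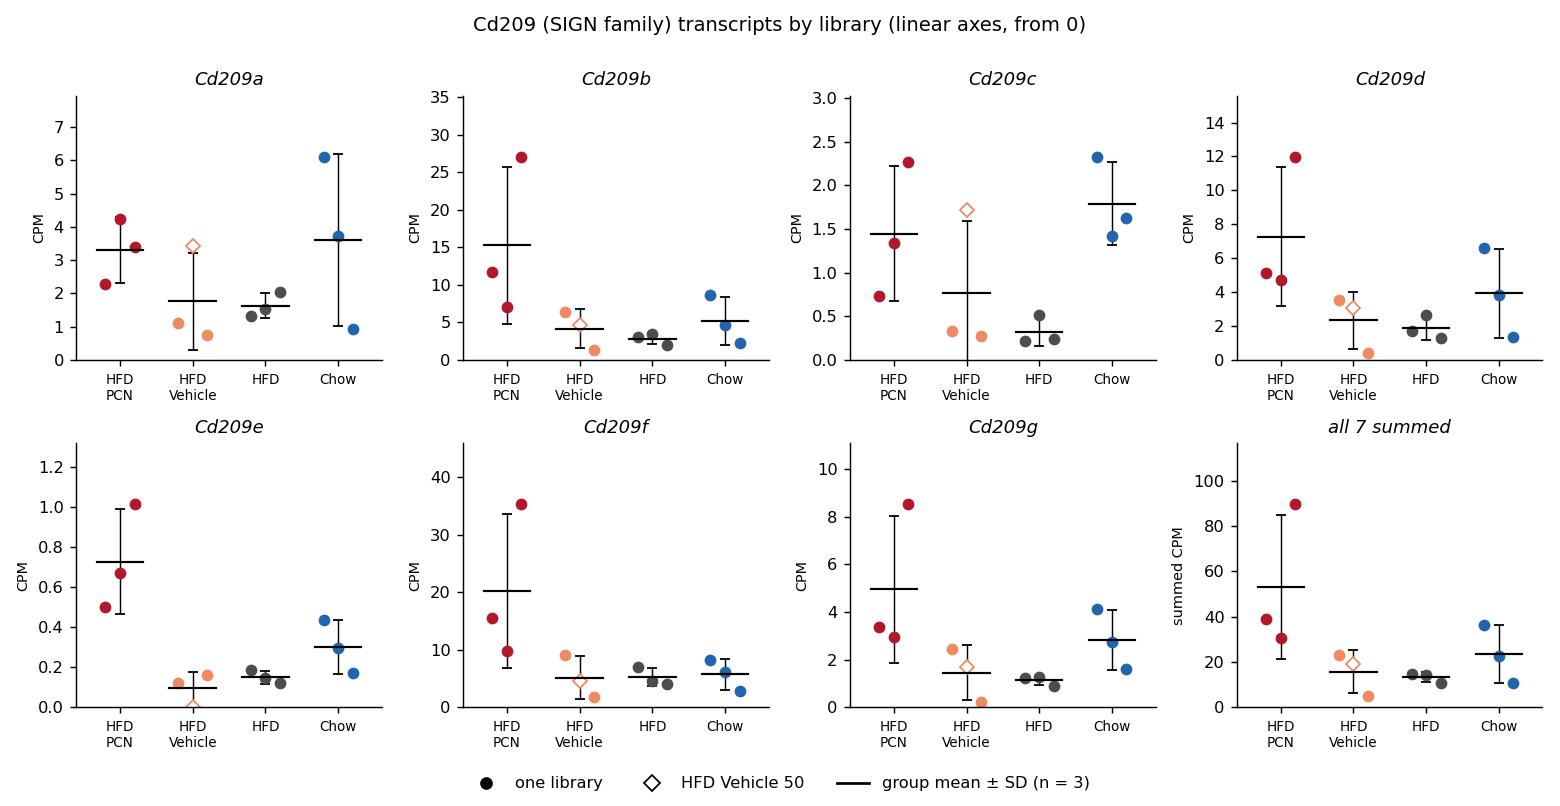
CPM (y axes, linear) of the 7 Cd209 genes and of their sum in each library of HFD PCN, HFD Vehicle, HFD and Chow, with the group mean ± SD. The summed value is 30.8 to 89.5 CPM in HFD PCN, 4.91 to 23.2 in HFD Vehicle, 10.7 to 14.8 in HFD and 10.9 to 36.5 in Chow.

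Summed over the 7 genes, Cd209 was 39.1, 30.8 and 89.5 CPM in HFD PCN 5, 11 and 27, against 23.2, 19.2 and 4.91 CPM in HFD Vehicle 23, 50 and 55. HFD 4, 30 and 38 had 14.8, 14.2 and 10.7 CPM, and Chow 8, 17 and 19 had 36.5, 22.8 and 10.9 CPM. Of 6 resident macrophage markers tested 0 were called in edgeR (median log2 fold change 0.54), and their sum was 742 to 1922 CPM in HFD PCN and 487 to 1155 CPM in HFD Vehicle. F13a1 had 184, 184 and 476 CPM in HFD PCN and 126, 126 and 52.5 CPM in HFD Vehicle, and Lyve1 had 43.5, 63.4 and 104 CPM in HFD PCN and 29.3, 26.5 and 6.41 CPM in HFD Vehicle, without overlap. The other 4 overlapped, with log2 fold changes of 0.67 for Timd4, 0.41 for Cd163, 0.27 for Mrc1 and -0.23 for Folr2. Of 6 mesothelial markers 0 were called (median log2 fold change 1.70), and their sum was 101, 67.5 and 54.5 CPM in HFD PCN and 20.4, 54.0 and 9.38 CPM in HFD Vehicle. The parts of resident macrophages and of mesothelium in the Cd209 values were not tested.

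For the other receptors HFD PCN and HFD Vehicle overlapped. Clec12a had 173, 73.2 and 131 CPM in HFD PCN and 213, 11.3 and 181 CPM in HFD Vehicle (log2 fold change -0.15 ± 0.89, and -0.69 ± 0.33 without HFD Vehicle 50). Clec4d had 34.2, 9.38 and 18.1 CPM in HFD PCN and 24.2, 2.16 and 23.4 CPM in HFD Vehicle (log2 fold change 0.26 ± 0.82, and -0.25 ± 0.46 without HFD Vehicle 50). Siglec1 had 206, 84.7 and 366 CPM in HFD PCN and 217, 43.7 and 204 CPM in HFD Vehicle (log2 fold change 0.45 ± 0.70, and 0.01 ± 0.52 without HFD Vehicle 50). None of the 3 was called, and the direction of Clec4d turned without that library. Without HFD Vehicle 50, edgeR and limma-voom again called 0 genes and DESeq2 called 44, with 0 members in each.

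HFD Vehicle 50 did not resemble Chow for every member. It had 2.16 CPM of Clec4d, 5.23 of Clec4a2 and 0.0902 of Siglec15, all within or near the range of Chow, but 8.93 CPM of Cd22, above all Chow libraries (0.855 to 2.18 CPM). Its 2.98 CPM of Siglecg was the highest of the 12 libraries, whose next value was 1.24 CPM. Per 1000 counts of the macrophage markers it had 8.70 of Cd22, against 2.11 and 2.54 in HFD Vehicle 23 and 55.

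Vehicle injection was set against no injection in the third comparison, HFD Vehicle against HFD, over genes listed in both tables. The activating receptors Clec4d and Clec7a were lower in HFD Vehicle, a difference that passed the test once HFD Vehicle 50 was left out. With all libraries, 0 of 16781 genes (0.0%) and 0 of 37 members passed the test in edgeR, with 1639 genes (9.77%) and 6 members at an unadjusted p under 0.05, while DESeq2 called 91 genes and limma-voom 0, with 0 members in each. Without HFD Vehicle 50, edgeR called 172 of 17313 genes, 100 higher and 72 lower, and 2 of 38 members, Clec4d and Clec7a, both lower. Injection, handling and any difference in when the 2 tables were made cannot be told apart here.

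Clec4d had 24.2, 2.16 and 23.4 CPM in HFD Vehicle 23, 50 and 55, against 97.6, 55.7 and 74.4 CPM in HFD 4, 30 and 38. The groups did not overlap, with a log2 fold change of -2.18 ± 0.75 (adjusted p = 0.485) in all libraries and -1.68 ± 0.23 (adjusted p = 0.0274) without HFD Vehicle 50. Clec7a had 91.4, 7.30 and 81.7 CPM in HFD Vehicle and 124, 146 and 154 CPM in HFD, with a log2 fold change of -1.23 (adjusted p = 0.510) and, without HFD Vehicle 50, of -0.71 (adjusted p = 0.0330). Clec4n had 2.33, 0.361 and 1.89 CPM in HFD Vehicle and 6.05, 4.56 and 4.15 CPM in HFD, a log2 fold change of -1.62 (adjusted p = 0.485) that was -1.23 without HFD Vehicle 50 (adjusted p = 0.0660). Libraries did not overlap for 8 members lower in HFD Vehicle (14.7% of all genes) and 1 higher, Clec1a (13.4%).

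The summed macrophage markers were also lower in each HFD Vehicle library, at 6526, 1026 and 6799 CPM, against 7448 to 8081 CPM in HFD, and 0 of the 12 genes were called in edgeR. Mast cell markers summed to 139, 23.1 and 61.1 CPM in HFD Vehicle and 309, 227 and 258 CPM in HFD, and 0 of 6 were called in edgeR, with 2 at an unadjusted p under 0.05 (median log2 fold change -1.98). The parts of these cells in the values of Clec4d and Clec7a were not tested. Per 1000 counts of the macrophage markers, Clec4d was 3.71, 2.11 and 3.44 in HFD Vehicle 23, 50 and 55 and 5.15, 3.26 and 2.64 in HFD PCN 5, 11 and 27. It was 12.1, 7.49 and 9.97 in HFD 4, 30 and 38 and 3.52, 2.18 and 2.16 in Chow 8, 17 and 19. On this scale the uninjected HFD libraries were above all 9 others.

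Clec10a gave the opposite order, and so did Siglec1. Per 1000 marker counts Clec10a was 26.7, 36.1 and 31.1 in HFD Vehicle and 35.3, 30.3 and 39.5 in HFD PCN. HFD had 13.4, 18.0 and 18.4, and Chow had 24.8, 38.0 and 33.5. Siglec1 was 33.3, 42.6 and 30.0 in HFD Vehicle and 31.0, 29.5 and 53.3 in HFD PCN. Its HFD values were 19.8, 24.0 and 23.9, and its Chow values 30.1, 28.1 and 40.0. In CPM, Clec10a had 174, 37.1 and 212 in HFD Vehicle and 108, 134 and 137 in HFD. Its log2 fold change was 0.17 ± 0.55 with all libraries and 0.61 without HFD Vehicle 50, called by DESeq2 (adjusted p = 0.0029) and by neither edgeR (adjusted p = 0.0796) nor limma-voom (adjusted p = 0.0844). Clec12a, by contrast, was 32.7, 11.0 and 26.6 per 1000 marker counts in HFD Vehicle, 23.2, 28.9 and 26.3 in HFD and 7.25, 7.46 and 8.28 in Chow, so HFD Vehicle 23 and 55 stood beside HFD. These ratios were chosen after the values were seen and carry no test.

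**Figure D5:**
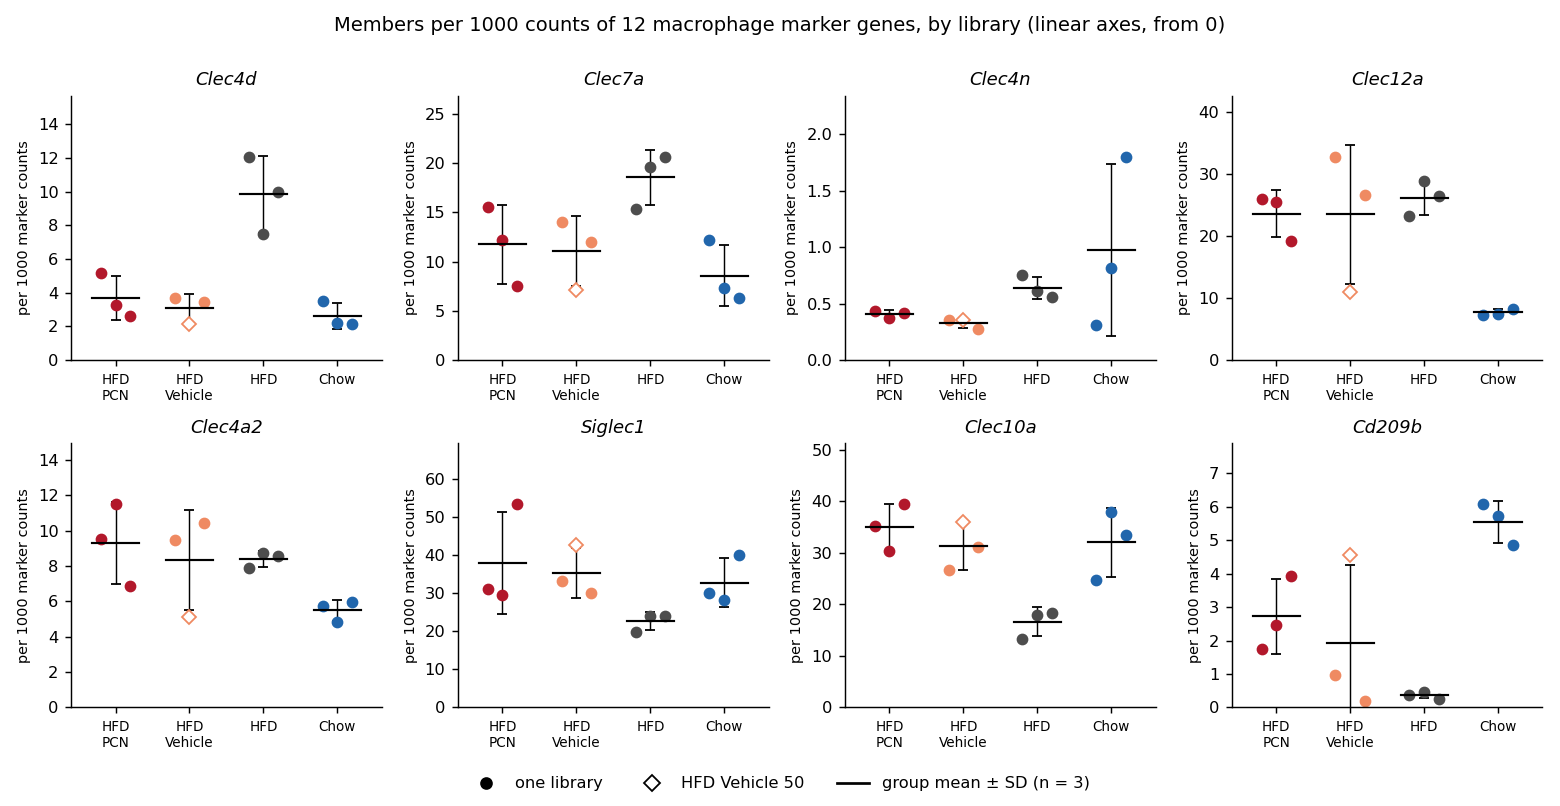
Counts of 8 members per 1000 counts of 12 macrophage marker genes (y axes, linear) in each library of HFD PCN, HFD Vehicle, HFD and Chow, with the group mean ± SD. Clec4d is highest in HFD (7.49 to 12.1), and Clec10a (13.4 to 18.4) and Siglec1 (19.8 to 24.0) are lowest in HFD. Clec12a is 7.25 to 8.28 in Chow and 11.0 in HFD Vehicle 50.

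HFD PCN was also set against HFD, a comparison added after the data were seen, because the HFD libraries had a smaller spread than HFD Vehicle. It holds PCN and injection together, which cannot be told apart in it, and it shares HFD libraries with 2 of the comparisons above. In edgeR 732 of 16927 genes (4.32%) and 5 of 40 members were called, all 5 higher in HFD PCN, where 2.97% of all genes were called higher and 1.35% lower. Cd209b had 11.6, 7.09 and 27.1 CPM in HFD PCN and 3.06, 3.43 and 1.98 CPM in HFD (log2 fold change 2.36 ± 0.49, adjusted p = 0.0451). Cd209e (log2 fold change 2.11 ± 0.43), Cd209g (2.04 ± 0.45), Clec14a (0.99 ± 0.18) and Clec1a (0.79 ± 0.16) were the others.

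All 7 Cd209 genes were above HFD in every HFD PCN library, and Clec4d, Clec7a and Clec4n were below it, with log2 fold changes of -1.92, -1.20 and -1.16 that did not pass the test. Libraries did not overlap for 9 members higher (22.2% of all genes) and 10 lower in HFD PCN (14.6% of all genes). Of 8 endothelial markers 3 were called higher in HFD PCN, with a median log2 fold change of 0.79, and of 6 mesothelial markers 1 (median 2.04). Of 6 resident macrophage markers 1, Lyve1, was called higher (median 1.44), and of 6 mast cell markers 4 were called lower (median -2.49). The parts of these cells were not tested. The number of calls hung on single libraries. It was 19 members and 5167 genes without HFD PCN 5, 7 members and 670 genes without HFD PCN 11, and 0 members and 0 to 4 genes without any one of HFD PCN 27, HFD 4, HFD 30 or HFD 38.

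The members under 1 CPM in every group were 16 genes with 0 to 37 counts in a library. Besides Cd207, Cd209e and Siglecf, given above, they were Clec12b, Clec18a, Clec2e, Clec2f, Clec2g, Clec2h, Clec2j, Clec2l, Clec4a4, Clec4b2, Clec4f, Clec4g and Siglecl1. Clec4f, known from Kupffer cells of the liver, had 1, 0, 3 and 0 counts over the 3 libraries each of HFD PCN, HFD Vehicle, HFD and Chow. Clec2f had 21 counts in HFD and 1 in Chow, which is 11.5 times as much when scaled by library totals (counting interval 1.84 to 474). Cd207, Cd209e, Siglecf, Clec4f, Clec2f and Clec12b were singled out after their values were seen. Clec12b, an inhibitory receptor, had 34, 47, 30 and 15 counts over the same groups.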

How the data were processed

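The authors deposited raw read counts per gene in 2 tables, one for HFD and Chow and one for HFD PCN and HFD Vehicle. HISAT2, HTSeq, DESeq2 and GRCm38 (mm10) are named, without versions, per the submitters' processing notes. No source used here states whether strand was taken into account in counting, and reads of overlapping antisense genes cannot be told apart. The deposited log2 fold changes and adjusted p-values of the authors were used only where their table is named. CPM was computed as counts over the library total of its own table. Each comparison was fitted on its own 6 libraries with edgeR 4.0.16 in R 4.3.3 (TMM scaling, filterByExpr, quasi-likelihood test, Benjamini-Hochberg adjusted p under 0.05 over all genes tested). DESeq2 1.42.0 and limma-voom (limma 3.58.1), other filters and scalings, and leaving out each library were the alternatives, and the scripts were tested on simulated data. Members with a mean of at least 1 CPM in a group (35) were named with values and the other 16 by name. Of each list of other genes, up to 3 called genes with the smallest p in HFD against Chow were named, except for genes that are not reported here. Cell type lists were given by counts and sums. Members and lists were chosen with earlier results of these data known. Intervals are exact binomial at 95% and, like the floor of 3 counts, cover counting error only. Exon lengths came from GENCODE M21, and promoters and motif counts used pandas 2.3.3 and Biopython 1.88.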

Additional observations from a re-analysis of the deposited data

How the results depend on the processing

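No paired analysis was possible because the library numbers in the labels are not shared between groups. Across tools, filters and scalings, HFD against Chow gave 8215 to 10549 genes, and 7953 to 10889 with one library left out, against 9699. For HFD PCN against HFD Vehicle, DESeq2 called 1 gene, DESeq2 without HFD Vehicle 50 called 44 and 2 passed in the authors' deposited table, against 0. For HFD Vehicle against HFD, DESeq2 called 91 genes and leaving out a library gave 0 to 172, against 0. Without HFD Vehicle 50, DESeq2 called 708 genes and 4 members and limma-voom 158 genes and 2 members, and leaving out a library gave 0 to 2 members. For HFD PCN against HFD, DESeq2 called 2411 genes and 13 members, no filter 1296 and 11, limma-voom 508 and 2, and the fit of all 12 libraries 0 and 0, while leaving out a library gave 0 to 5167 genes and 0 to 19 members, against 732 and 5. The cause was not tested. Uncalled log2 fold changes changed sign for Clec3b without a filter (0.0019) and for Clec10a in HFD Vehicle against HFD with limma-voom (-0.22). Leaving out one library at a time, uncalled log2 fold changes of HFD against Chow ranged over -0.59 to 0.05136 for Cd33 (above 0 without Chow 8), -0.29 to 0.20 for Clec3b (without Chow 8; 0.10 without HFD 38), -0.21 to 0.43 for Clec9a (below 0 without Chow 17) and -0.53 to 0.04865 for Siglecg (above 0 without Chow 19). Clec10a in HFD Vehicle against HFD ranged over -0.27 to 0.61 (below 0 without HFD Vehicle 55). In HFD PCN against HFD Vehicle, uncalled values turned sign for Clec12a with limma-voom (0.63), for Clec4d without HFD Vehicle 50 in DESeq2 (-0.26) and limma-voom (-0.39), and for Siglec1 without it in limma-voom (-0.23). With one library left out they ranged over -0.69 to 0.32 for Clec12a (above 0 without HFD PCN 11, HFD Vehicle 23 or 55), -0.32 to 0.61 for Clec4d (below 0 without HFD PCN 5 or HFD Vehicle 50) and -0.14 to 0.83 for Siglec1 (below 0 without HFD PCN 27).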
